A study of Sus scrofa with 2 samples.

Results

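The endothelin system is described here by its ligands EDN1, EDN2 and EDN3, its receptors EDNRA and EDNRB, and its converting enzymes ECE1 and ECE2, compared in the stria vascularis (SV) of pigs with 1 and with 2 copies of the MITF r allele. These 7 genes were matched by gene symbol. Of 27622 features in the table, 6 matched, 1 for each gene except EDN2, which no row carried and which was not analysed here.

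Endothelins are short secreted peptides that act through G protein-coupled receptors. The ligand genes EDN1, EDN2 and EDN3 encode long precursors, which proprotein convertases cut to intermediates and the converting enzymes ECE1 and ECE2 cut to active peptides. EDNRA encodes a receptor that prefers the EDN1 and EDN2 products and is best known from vascular smooth muscle and neural crest mesenchyme. EDNRB encodes a receptor that accepts all of the ligands alike. Signalling from EDN3 to EDNRB is needed for neural crest cells that become melanocytes and enteric neurons, and mutations in either gene cause a form of Waardenburg syndrome with deafness. The intermediate cells of the SV are melanocytes of this origin, and MITF is a transcription factor of the same lineage.

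These genes were examined by RNA-seq in pig SV dissected from the lateral wall of the cochlea. There was 1 library of heterozygous SV (MITF R/r) and 1 library of homozygous mutant SV (MITF r/r), so that both carried the r allele and the control had 1 copy of R. The r allele arose spontaneously in the Rongchang breed, and r/r pigs are deaf and lack pigment. The labels give the age as postnatal day 1, whereas the study's text describes an embryonic stage, and the age was left unsettled here. Whether a library came from 1 animal or from several pooled animals is not stated in the sources used here. Since no sequence tables were at hand, no sequences are printed.

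Levels are RPKM values, that is, read counts divided by exon model length and by library size, and can be compared between genes. The names R/r and r/r below stand for the SV library of each genotype. Reads behind the values were recovered from their digits, with library totals of 15829244 reads (R/r) and 14258672 reads (r/r). Intervals are 95% intervals that cover counting error only, and where the true reads of a gene are a multiple of those recovered the intervals are too wide. With 1 library per genotype there was no replicate check and no p-value, so every difference is one between these libraries, and genotype, animal and dissection cannot be told apart. Markers of the labelled tissue were present in both, with KCNE1, a potassium channel subunit of marginal cells, at 278 RPKM (R/r) and 248 RPKM (r/r). Spiral ligament was also present, as COCH of its fibrocytes stood at 6826 and 4914 RPKM, and so was bone, as IBSP stood at 431 and 268 RPKM.

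The endothelin genes differed unequally. EDNRB was about 10-fold lower in r/r, EDN3 was about 2-fold lower, and EDNRA was slightly higher. EDN1, ECE1 and ECE2 were within counting error of no change. Of the 6 genes, 2 were at least 2-fold lower in r/r, against 2.20% of the 16331 genes above 0 in both libraries with at least 1 RPKM in one of them. None was at least 2-fold higher, against 1.78% of those genes, and 3.99% of them were 2-fold apart in either direction. Only EDNRB among the 6 had an interval wholly beyond 2-fold lower, against 0.349% of the genes compared. The median log2 ratio of the 6 genes, r/r over R/r, was -0.27, against -0.02 over all genes compared.

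**Figure D1:**
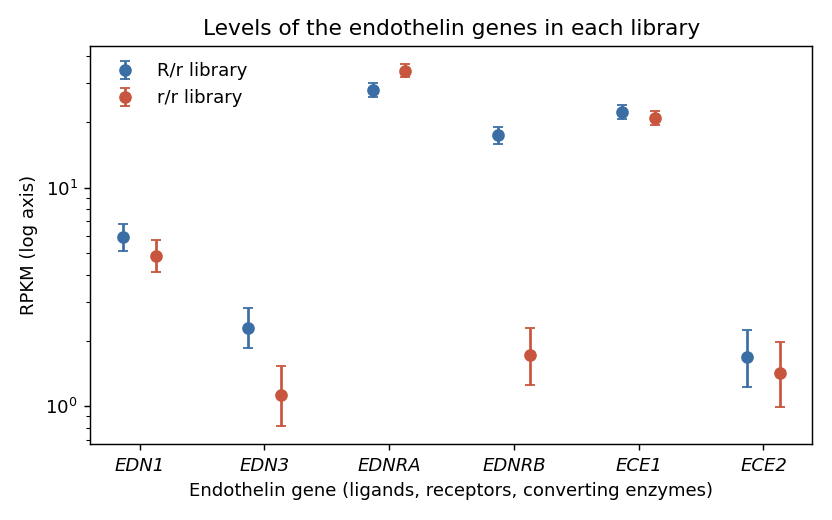
Level of each endothelin gene in RPKM (log axis) in the R/r library (blue) and the r/r library (red). Bars are 95% Poisson intervals on the reads; EDNRB is at 17.3 RPKM in R/r and 1.71 RPKM in r/r, and EDNRA at 28.0 and 34.2 RPKM.

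Among the receptors, EDNRB (ENSSSCG00000009477) had 17.3 RPKM in R/r and 1.71 RPKM in r/r. These values came from 506 and 45 reads on an exon model of 1844 bases. The counting intervals of the levels, 15.9 to 18.9 RPKM and 1.25 to 2.29 RPKM, did not overlap. The log2 ratio was -3.34 (95% interval -3.81 to -2.90), a level 10.1-fold lower in r/r (7.46 to 14.1). EDNRB thus kept 9.87% of its R/r level. Lower ratios were found for 17 of the 16331 genes compared. Restricted to the 7388 genes with no fewer reads than EDNRB, 4 had a ratio as low, itself included. Neither count takes in genes listed at 0 in r/r, of which 49 had at least 1 RPKM in R/r. By level, EDNRB stood above 71.4% of the features detected in R/r and above 27.2% of those detected in r/r. In bulk tissue, fewer cells of a type and less RNA per cell cannot be told apart.

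EDNRA (ENSSSCG00000009031) had 28.0 RPKM in R/r and 34.2 RPKM in r/r, from 749 and 826 reads. It was the endothelin gene with the highest level in each library. Its log2 ratio was 0.29 (0.15 to 0.44), a level 22.4% higher in r/r, and 11.3% of the genes compared had a higher ratio. Its interval lay above 0, as did those of 11.2% of all genes compared, so that this direction alone is common in these libraries. With the smallest whole reads that give its values, an alternative chosen after seeing the data, the interval was -0.10 to 0.68 and spanned 0. If both mates of each pair had been counted as reads, it would be 0.09 to 0.50.

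Set against each other, the receptors made up different shares of receptor RNA in the libraries. EDNRB made up 38.3% of the summed EDNRA and EDNRB level in R/r (35.6 to 41.0) and 4.76% in r/r (3.49 to 6.32). The summed level went from 45.3 to 35.9 RPKM. EDNRA was 1.61 times EDNRB in R/r and 20.005 times EDNRB in r/r. The ratio of EDNRB to EDNRA was therefore 12.4-fold lower in r/r (8.96 to 17.5), a value that does not depend on the scaling between libraries.

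**Figure D2:**
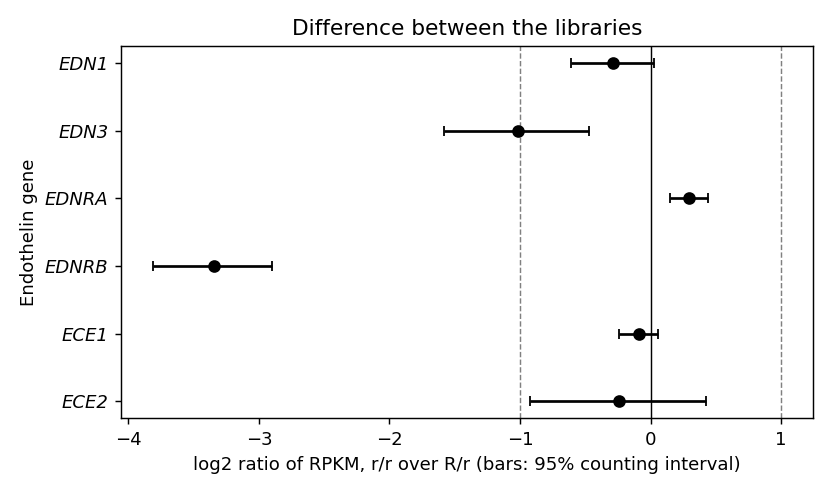
log2 ratio of RPKM, r/r over R/r, for each endothelin gene, with 95% counting intervals; the dashed lines mark 2-fold. EDNRB, at -3.34, has its whole interval beyond the line, EDN3 sits on it at -1.02, and EDNRA lies above 0 at 0.29.

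Among the ligands, EDN3 (ENSSSCG00000007527), the ligand of melanocyte precursors, had 2.29 RPKM in R/r and 1.13 RPKM in r/r. These values rest on 92 and 41 reads over 2539 bases, fewer than for EDNRB. Their counting intervals, 1.85 to 2.81 RPKM and 0.813 to 1.54 RPKM, did not overlap. The log2 ratio was -1.02 (-1.58 to -0.47), a level 2.02-fold lower in r/r (1.38 to 2.996), and the ratios of 2.16% of genes were lower still. EDN3 sat on the 2-fold threshold. It was 2-fold lower as deposited, but centring the ratios on the median of all genes gave -0.997, just short of it, and a pseudocount of 0.1 RPKM gave -0.95.

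EDN1 (ENSSSCG00000001050), the ligand made mainly by endothelium and some epithelia, had 5.95 RPKM in R/r and 4.87 RPKM in r/r, from 198 and 146 reads. Its log2 ratio of -0.29 (-0.61 to 0.03) spanned no change. EDN1 was the more abundant ligand in both libraries. EDN3 was 27.8% of the summed EDN1 and EDN3 level in R/r (22.9 to 33.1) and 18.9% in r/r (13.8 to 24.8). The ratio of EDN3 to EDN1 was 1.65-fold lower in r/r (1.06 to 2.60), the lower end of the interval lying close to no difference.

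The converting enzymes differed less. ECE1 (ENSSSCG00000003513), the broadly expressed membrane protease of this pathway, had 22.2 RPKM in R/r and 20.8 RPKM in r/r. With 814 and 689 reads its log2 ratio was narrowly bounded at -0.09 (-0.24 to 0.06), which leaves out a difference of 2-fold in these libraries. ECE2 (ENSSSCG00000025067), the relative that works at acidic pH, had 1.68 and 1.42 RPKM. Its log2 ratio of -0.24 (-0.92 to 0.42) is wide, since it rests on 46 and 35 reads. ECE2 was 7.05% of the summed ECE1 and ECE2 level in R/r and 6.38% in r/r, with overlapping intervals. In the later assembly Sscrofa11.1, CAMK2N2 overlaps the ECE2 locus, so that reads of these genes may be shared.

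Intervals lay below 0 for EDNRB and EDN3, against 14.4% of all genes compared. Counted in either direction, intervals excluded 0 for 3 of the 6 genes, against 25.5% of all genes. This became 2 of the 6 with the smallest whole reads, where EDNRA was the gene lost.

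Read as levels per length, the order in R/r was EDNRA, ECE1, EDNRB, EDN1, EDN3 and ECE2. Neighbours in this order were apart beyond counting error except EDN3 and ECE2, whose ratio of 1.36 had an interval of 0.946 to 1.98. In the r/r SV the order was EDNRA, ECE1, EDN1, EDNRB, ECE2 and EDN3. There, EDNRB at 1.71 RPKM was not apart from ECE2 at 1.42 RPKM, with a ratio of 1.21 (0.758 to 1.93). ECE2 was not apart from EDN3 at 1.13 RPKM, with a ratio of 1.25 (0.775 to 2.02). EDNRB was thus 2.91 times EDN1 in R/r, and EDN1 was 2.85 times EDNRB in r/r.

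**Figure D3:**
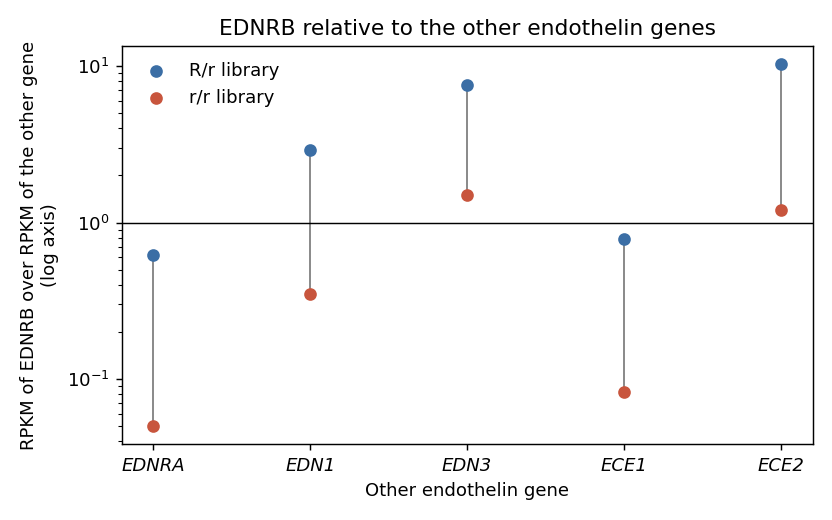
RPKM of EDNRB divided by the RPKM of each other endothelin gene (log axis) within the R/r library (blue) and the r/r library (red); the line at 1 marks equal levels. Each ratio is lower in the r/r library, from 0.620 to 0.0500 against EDNRA and from 7.57 to 1.51 against EDN3.

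EDNRB was lower in r/r relative to each of the 5 other genes. Relative to EDN1 it was 8.29-fold lower (5.64 to 12.3), and relative to ECE1 9.52-fold lower (6.87 to 13.4). Relative to ECE2 it was 8.56-fold lower (4.81 to 15.1). The smallest gap was that to EDN3, at 5.01-fold (3.01 to 8.29), as the levels of both genes were lower. EDN3 itself was 2.47-fold lower relative to EDNRA (1.67 to 3.72) and 1.90-fold lower relative to ECE1 (1.28 to 2.86). Relative to ECE2 its interval, 0.923 to 3.15, spanned no difference. The ratio of EDN1 to EDNRA was 1.496-fold lower (1.17 to 1.91).

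The genes around EDNRB did not share its ratio. In the gene order of Sscrofa11.1, the 4 nearest genes compared, a pair on each side, had log2 ratios between -0.21 and 0.18. For EDN3 the 4 nearest genes ranged from -0.71 to 0.04, and for EDNRA from -0.26 to 0.64.

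Most marker genes of melanocytes were also lower, and their part in the EDNRB result was not tested. Of 14 melanocyte markers in the table, 10 could be compared, with a median log2 ratio of -5.01. Of the 10, 7 were at least 2-fold lower in r/r, against 2.20% of all genes compared. The summed level of the 14 markers was 338 RPKM in R/r and 58.4 RPKM in r/r. MLANA, a melanosome protein, had 12.03 RPKM in R/r and was listed at 0 in r/r, as was PAX3, a factor upstream of MITF, after 1.09 RPKM. TYRP1 and MC1R did not exceed 0.0728 RPKM in either library. KIT, the receptor tyrosine kinase of the lineage, was at 43.6 and 44.2 RPKM, and OCA2 and SOX10 had log2 ratios of 0.04 and -0.21.

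EDNRB kept a larger share of its R/r level than 6 of the 10 markers compared. DCT, an enzyme of melanin synthesis, kept 0.695%, TYR kept 1.495%, SLC45A2 kept 2.90% and PMEL kept 3.31%. Relative to DCT, EDNRB was higher in r/r by 3.83 on the log2 scale (3.24 to 4.40), and relative to PMEL by 1.58 (0.39 to 2.99). The same direction held against TYR, SLC45A2, TRPM1 and RAB38. TRPM1 had 1 read in r/r, which leaves a wide interval of 4.74 to 12.6 on the log2 scale. Against GPR143, a melanosome receptor that kept 42.1%, the direction was opposite, as EDNRB was lower by 2.09 on the log2 scale (-2.86 to -1.31). The melanocyte markers were thus spread over a wide range, and EDNRB lay inside it.

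EDNRB is also known from glia. Among glial markers, FABP7, the highest of the list, had 33.5 and 36.9 RPKM, ERBB3 had a log2 ratio of 0.22 (0.04 to 0.39), and SOX10, shared with the melanocyte list, had -0.21 (-0.58 to 0.16). The median of the 4 genes compared was -0.04. CDH19, a cadherin of Schwann cell precursors, had 0.874 RPKM in R/r and was listed at 0 in r/r.

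Vascular markers were compared beside EDN1 and EDNRA. Of 10 endothelial markers compared, 0 were at least 2-fold apart, with a median of -0.12 and summed levels of 299.9 and 294.8 RPKM. CLDN5, a junction protein of endothelium with the highest mean level, had 71.3 and 76.3 RPKM. Intervals lay below 0 for 3 endothelial markers, VWF at -0.73 (-1.08 to -0.38), FLT1 at -0.24 and PECAM1 at -0.21, and above 0 for 1, TEK at 0.24, all named after their values were seen. Of 6 smooth muscle and pericyte markers compared, 0 were 2-fold apart, with a median of -0.01 and summed levels of 196 and 193 RPKM. RGS5, a pericyte gene, had 84.9 and 85.0 RPKM. Intervals in that list lay above 0 for 1 gene, TAGLN at 0.44 (0.18 to 0.70), and below 0 for 1 gene, PDGFRB at -0.11 (-0.19 to -0.04), both named after their values were seen. Over all genes compared, intervals lay below 0 for 14.4% and above 0 for 11.2%, and 3.99% were at least 2-fold apart. Smooth muscle myosin MYH11, calponin CNN1 and desmin DES did not exceed 0.458 RPKM in either library. Of the same list, TAGLN had 11.7 RPKM in R/r and 15.9 RPKM in r/r, and ACTA2 had 1.92 and 2.09 RPKM.

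**Figure D4:**
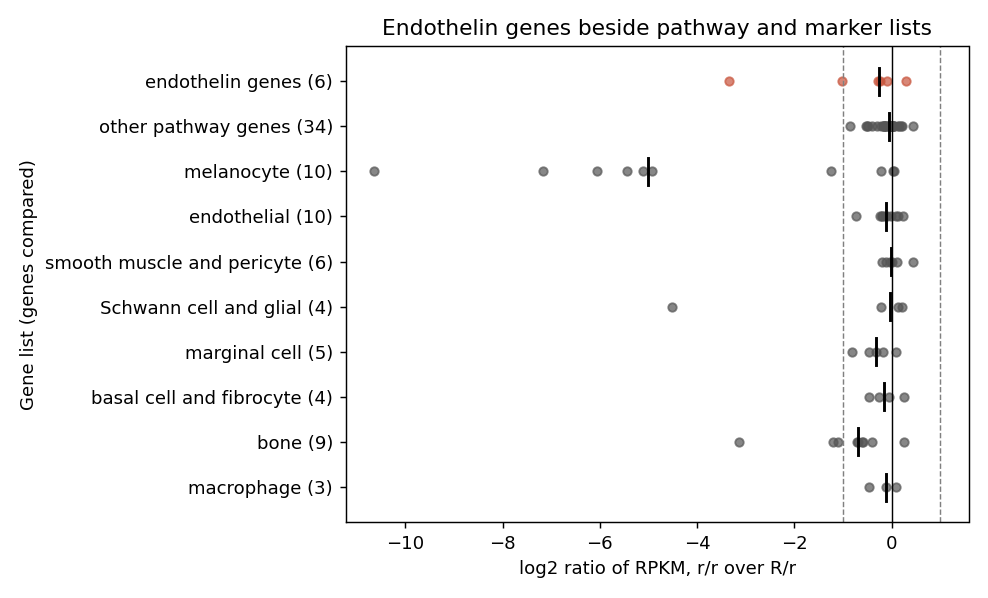
log2 ratio of RPKM, r/r over R/r, for single genes of each list (points) with the list's median (black bar); numbers in parentheses are the genes compared, and dashed lines mark 2-fold. The endothelin genes (red) spread from -3.34 to 0.29, the other pathway genes stay between -0.85 and 0.44, and the melanocyte markers reach -10.6, a value from 1 read in the r/r library.

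Markers of other cells of the lateral wall and of bone were compared in the same way. Of 5 marginal cell markers, 0 were 2-fold apart, with a median of -0.31 and with ATP1B2, a sodium pump subunit, at 915 and 522 RPKM. Their intervals lay below 0 for 4 of the 5 and above 0 for 1. Over all genes compared, these shares were 14.4% and 11.2%. The 4 markers of basal cells and fibrocytes had a median of -0.15, with COCH highest. The 3 macrophage markers compared had a median of -0.12, with AIF1, at 18.2 and 19.5 RPKM, the most abundant. Most bone markers were lower, with a median of -0.68 over 9 genes and 8 ratios below 0. Of the 9, 3 were at least 2-fold lower, against 2.20% of all genes compared. SPP1 went the other way, with a log2 ratio of 0.27 (0.18 to 0.36). MEPE, a matrix protein of osteocytes, had 3.43 and 0.388 RPKM from 49 and 5 reads, a log2 ratio of -3.14 (-4.83 to -1.82) whose interval takes in that of EDNRB. COL1A1 had -1.21 and DMP1 -1.11. IBSP was the highest of that list, and its summed level went from 1041 to 682 RPKM. The part of bone in the ratios of the endothelin genes was not tested.

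The other endothelin pathway genes compared were within 2-fold. A list of 42 symbols for precursor processing, peptide breakdown, related receptors and signalling had 39 genes in the table, of which 34 could be compared. None of the 34 was at least 2-fold apart, against 3.99% of all genes compared, and their median log2 ratio was -0.04. Their intervals lay below 0 for 10 genes and above 0 for 2. The share of all genes in each direction was 14.4% and 11.2%.

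Upstream of the converting enzymes, the proprotein convertase FURIN had 52.9 RPKM in R/r and 53.5 RPKM in r/r, a log2 ratio of 0.02 (-0.08 to 0.11). PCSK6, the convertase with the highest level, had 219 and 153 RPKM, a log2 ratio of -0.51 (-0.60 to -0.42). MME, neprilysin, which breaks down endothelins and many other peptides, was far more abundant than ECE1 with 381 and 267 RPKM. Its log2 ratio was -0.52 (-0.55 to -0.48). PHEX, a relative of the converting enzymes found in bone cells, had the lowest ratio of the 34 genes, -0.85 (-1.15 to -0.56), and was chosen after its values were seen. KEL, MMEL1 and ECEL1, other relatives, did not exceed 0.273 RPKM in either library.

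Of the receptor relatives, GPR37 had 81.1 and 94.6 RPKM, a log2 ratio of 0.22 (0.15 to 0.29), whereas GPR37L1 was at 0.157 and 0.0582 RPKM. Downstream, the G protein subunit GNAQ had 71.4 and 71.2 RPKM and GNA11 had a log2 ratio of 0.05 (-0.07 to 0.16). The 7 G protein and phospholipase C genes compared ranged from -0.16 to 0.13. Among protein kinase C and IP3 receptor genes, ITPR1, the calcium channel with the highest level, had 67.9 and 92.0 RPKM, a log2 ratio of 0.44 (0.36 to 0.52). The other 5 genes of that group had ratios below 0. Genes of receptor desensitisation had a median of -0.09 over 6 genes, with the receptor kinase ADRBK1 at 32.7 and 32.0 RPKM. MAP kinase genes had a median of -0.01 over 8 genes.

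Among genes of Waardenburg syndrome, EDNRB and EDN3, already described as members, were the 2 of 5 genes compared that were at least 2-fold lower. The share over all genes compared was 2.20%. PAX3, also of this list, had 1.09 RPKM in R/r and was listed at 0 in r/r, so it had no ratio. MITF, read from its most abundant feature, had 51.7 and 37.8 RPKM, a log2 ratio of -0.45 (-0.75 to -0.16). According to the study, a gene-level RPKM cannot separate the melanocyte transcript MITF-M from the other MITF transcripts. From reads per exon in SV RNA, the study reports a much lower level of the M exon in r/r. SNAI2, a factor of neural crest migration, had 2.91 and 2.40 RPKM, a log2 ratio of -0.28 (-1.02 to 0.45). As EDN3 sat on the threshold, 1 of the 5 was left with ratios centred on the median.

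The genes nearest to EDNRB in log2 ratio, among named genes with at least 5 RPKM in one library, were taken as 5 on each side. The likeness is a difference of log2 ratios over 2 libraries, which is a weak measure. On the lower side these included DARC, PMEL, SLC45A2 and RAB38, with ratios from -4.91 to -5.44. The higher side held ENSSSCG00000001397, which is listed under a clone name, SNORD78, CADM3, snoU13 and ssc-let-7d, from -3.25 to -2.55. Of these, CADM3, a cell adhesion molecule, had 561 and 62 reads and differed from EDNRB by 0.31, while the 3 small RNAs had at most 13 reads in a library.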

How the data were processed

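RNA was taken from SVs dissected from cochlear lateral walls, 1 library per genotype. The authors filtered paired reads, aligned them to Sscrofa10.2 with TopHat2 (2.0.7, per the submitters' processing notes) and deposited RPKM values per gene, that is reads scaled to exon model length and to mapped reads. The counting program and annotation are not given in the sources used here. Since RPKM values are already scaled, they were used as deposited. The table also holds 2 columns without headings, the authors' own differences and ratios for 22 genes, which were not used.

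Ratios were taken on the log2 scale with no pseudocount, over genes that were above 0 in each library and reached 1 RPKM in one. Reads were recovered from the digits of the values. The commonest ratio of low values gave the library ratio, 1.11, and the library totals were the largest that made the exon model length whole for at least 60% of 3000 genes (73.1% here). A whole length was found for 99.2% of 19347 features with a factor of up to 50. Of 9 mitochondrial genes with a length, RefSeq gives the same length for 4 and a whole multiple for 3. Intervals were exact: Clopper-Pearson on reads of both libraries for ratios, Poisson for levels, conditional for ratios of ratios. On a simulated pair of libraries with 19193 genes, totals were recovered exactly and 84.2% of genes had the exact reads. Of 2000 intervals, 97.3% held the true ratio, and 200 of 200 genes changed 4-fold were at least 2-fold apart in their direction. The simulated reads varied by counting error alone, so these figures do not cover differences between animals or dissections. The simulated lengths were those recovered here, so the 84.2% does not show how often the real reads were recovered exactly.

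A symbol with several features was read from the feature of highest mean. Symbols came from the table (16376 features) and an Ensembl name table (1794). Named are the members, in each list the genes at least 2-fold apart and the gene with the highest mean, the 5 genes on each side nearest to EDNRB, and genes beside a member's result. Alternatives were pseudocounts, minimums, scalings and thresholds, and, added after seeing the data, the smallest whole reads and reads counted by pair. Results for some genes that this rule names are left out of the text. Members and lists were chosen with earlier results of these data known. Scripts ran under Python 3.11.15 with scipy 1.17.1, numpy 2.4.6 and pandas 2.3.3, and plots were drawn in matplotlib 3.10.9.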

Additional observations from a re-analysis of the deposited data

How the results depend on the processing

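No paired analysis was possible because each genotype had 1 library. Of 42 values of single endothelin genes under alternatives, 41 stayed within their counting interval and 0 changed sign. The exception was EDNRB with a pseudocount of 1 RPKM, at -2.76 in place of -3.34. The same pseudocount gave -3.04 for EDNRB against EDNRA and -2.67 for EDNRB against ECE1 on the log2 scale. EDN3 ranged from -1.05 to -0.63 and EDNRA from 0.26 to 0.31. A pseudocount moves ratios of low values toward no difference by construction. Genes at least 2-fold apart numbered 651. They were 1483 with no minimum, 178 with a minimum of 5 RPKM, 317 with a pseudocount of 1 RPKM, 1771 at 1.5-fold and 130 at 4-fold, by construction for the minimums and thresholds. At 1.5-fold, 1 of the pathway genes, 1 endothelial marker, 1 marginal cell marker and 7 bone markers were apart. With no minimum, 2 pathway genes were 2-fold apart. All log2 ratios shared a shift of -0.02 (median), -0.01 (upper quartile) or 0.04 (TPM). Depth limits ECE2 and EDN3 most.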

Other observations

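Receptors of other vasoactive peptides were described beside those of endothelin. Of 10 symbols, 8 were in the table and 4 could be compared, with a median log2 ratio of 0.44. AGTR1, an angiotensin II receptor, had 1.28 RPKM in R/r and 3.11 RPKM in r/r, from 38 and 83 reads (log2 ratio 1.28, 95% interval 0.71 to 1.87). It was the 1 gene of the 4 at least 2-fold apart, against 3.99% of all genes compared. With a pseudocount of 1 RPKM or a minimum of 5 RPKM it was not counted as 2-fold apart. NPR3, the clearance receptor of natriuretic peptides, had 12.3 and 22.6 RPKM (0.87, 0.42 to 1.34). NPR2, a natriuretic peptide receptor with guanylyl cyclase activity and the highest mean level of the list, had 26.1 and 23.7 RPKM, and CALCRL, the receptor subunit for CGRP and adrenomedullin, had 15.8 RPKM in each SV. AGTR2, BDKRB1, BDKRB2 and NPR1 were below 1 RPKM in both libraries.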
